A study of Homo sapiens with 8 samples.

Results

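The poly(A) peaks described here lie upstream of the starts of protein-coding genes, on the side of the promoter that the gene itself does not occupy. A peak is a place where sequencing reads from the 3′ ends of polyadenylated RNA piled up above the local background. A peak was included when it overlapped no gene of GENCODE release 44 and no window of 600 bp after an annotated transcript end, when its summit lay within 5 kb upstream of a protein-coding gene start, and when no gene ended within 10 kb of it in a direction pointing toward it. This left 1248 of 153624 peaks (0.812%), upstream of 1044 genes by the nearest start. The last condition removes peaks that could be the run-on ends of a neighbouring gene, and without it 2298 peaks met the rule. In 43 of the 1248, coding genes started on both sides. For the other 1205, the strand that reads away from the gene could be defined and is called the outward strand, and the gene's own strand is called the inward strand.

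The study asked how the transcriptional kinases CDK12 and CDK13 affect transcript ends in neuroblastoma. Poly(A) 3′-seq was performed in the human neuroblastoma line Kelly, in which MYCN is amplified, and in Kelly E9R, a derivative that arose under rising doses of the CDK12 inhibitor E9 and in which CDK12 carries a point mutation at the cysteine that the covalent CDK12/13 inhibitor THZ531 binds. Each line was given the solvent DMSO or THZ531 for 6 h, in biological duplicate, so that 8 libraries fall into 4 groups of 2: Kelly with DMSO, Kelly with THZ531, Kelly E9R with DMSO and Kelly E9R with THZ531. The labels give the THZ531 dose as 400 nM, whereas the study's own text gives a lower dose for these libraries. The authors merged the reads of all libraries before calling peaks, so each peak has 1 pooled value. There is no replicate, library depths are unknown, and neither THZ531 with DMSO nor Kelly with Kelly E9R could be compared.

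Active promoters in mammals usually fire in both directions. The RNA made on the outward side (promoter upstream transcripts, or upstream antisense RNA) is as a rule capped, short and unspliced, and it is cleaved and polyadenylated soon after the start and then removed by the nuclear exosome, so that little of it accumulates. Cleavage and polyadenylation need a hexamer such as AATAAA a short way before the cut, and binding of U1 snRNP to sites like the 5′ splice site protects nascent RNA from such early cuts. A kit that primes on poly(A) can also prime on A-rich stretches inside an RNA, which gives a peak without a poly(A) tail.

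In the assay used (QuantSeq 3′ REV) a read starts at the junction of the transcript and its poly(A) tail and runs back into the transcript, so a peak's 3′ edge on a given strand marks the inferred cleavage position on that strand. Peaks carry no strand, and both strands were therefore read at every peak. The outward sequences at 4 of the strongest peaks with AATAAA or ATTAAA starting 10 to 40 bp before the outward edge, and with no A-rich stretch after it, let the hexamer and its surroundings be seen. Each runs 5′ to 3′ on the outward strand on GRCh38, with 60 bases before the edge and 40 after it, and capitals mark each AATAAA or ATTAAA that starts 10 to 40 bp before the edge. The windows are MAP3K7 chr6:90590899-90590998 on the forward strand, CKS2 chr9:89309984-89310083 on the reverse strand, B3GNT2 chr2:62194389-62194488 on the reverse strand, ST8SIA2 chr15:92389665-92389764 on the reverse strand.

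MAP3K7: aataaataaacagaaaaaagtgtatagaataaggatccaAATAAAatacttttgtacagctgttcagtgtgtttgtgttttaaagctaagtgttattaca
CKS2: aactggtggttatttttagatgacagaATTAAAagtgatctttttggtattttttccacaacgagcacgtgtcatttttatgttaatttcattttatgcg
B3GNT2: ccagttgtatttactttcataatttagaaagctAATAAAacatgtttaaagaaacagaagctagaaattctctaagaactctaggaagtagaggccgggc
ST8SIA2: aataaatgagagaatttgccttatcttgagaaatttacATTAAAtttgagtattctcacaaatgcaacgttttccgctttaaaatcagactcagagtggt

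MAP3K7, CKS2, B3GNT2 and ST8SIA2 each carry 1 hexamer at that place. For contrast, the next sequence lies upstream of CBS, at a strong peak with a stretch of 25 A (at most 3 mismatches) after the outward edge and none of the 12 motifs before it, chosen after its values were seen. Capitals mark the A run after the edge, in the window chr21:43077034-43077133 on the forward strand.

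CBS: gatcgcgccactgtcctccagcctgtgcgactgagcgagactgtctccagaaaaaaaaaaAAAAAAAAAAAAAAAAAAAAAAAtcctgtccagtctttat

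The run after the edge was 23 bases long upstream of CBS, which encodes the enzyme cystathionine beta-synthase. These sequences are examples of a hexamer with no A-rich stretch behind it and of a plain run of A. They do not show the full range of the upstream peaks.

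The outward strand had a motif before the 3′ edge, and A-rich sequence after it, at a higher share of peaks than the inward strand. Motifs were the 12 poly(A) signal hexamers that the study used, AATAAA among them, searched on the strand being read in the 100 bp before its 3′ edge. At least 1 of them was present on the outward strand at 581 of 1205 peaks (48.2%, 95% Wilson interval 45.4 to 51.04%) and on the inward strand at 365 (30.3%, 27.8 to 32.9%). The motif was outward only at 342 peaks and inward only at 126, a difference of 17.9 percentage points (exact McNemar test over the 2 strands of the same peaks, two-sided, p = 4.23e-24, Benjamini-Hochberg adjusted over 7 features 7.40e-24). When the window was moved to end at the summit, which leaves out the bases between summit and edge, the difference was -2.49 points (p = 0.168, exact McNemar test). Peaks are not replicates of a condition, and these p-values and intervals cover counting error over peaks only.

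The canonical hexamers made up most of the gap. AATAAA, the most efficient signal, was found on the outward strand at 315 peaks (26.1%) and on the inward strand at 126 (10.5%), and ATTAAA, the common variant, at 107 (8.88%) and 49 (4.07%). Of the 10 weaker signals, AAGAAA was the most frequent, at 9.13% outward and 5.73% inward. TATAAA stood at 4.56% and 2.57%, AGTAAA at 4.15% and 3.15%, AATATA at 4.07% and 2.90%, CATAAA at 3.98% and 2.32%, and AATACA at 3.90% and 3.15%. ACTAAA stood at 3.07% and 1.16%, AATAGA at 2.99% and 1.58%, and GATAAA at 2.57% and 1.99%. AATGAA, at 4.48% and 4.32%, was the most even, and all 12 had the higher share outward.

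Position separated the strands further. AATAAA or ATTAAA started 10 to 40 bp before the edge, here called a placed hexamer, at 315 outward edges (26.1%, 23.7 to 28.7%) and 86 inward edges (7.14%, 5.82 to 8.73%), with 300 peaks outward only and 71 inward only (exact McNemar test, adjusted p = 4.59e-34). Read at windows moved 500 bp farther from the gene, the shares fell to 4.98% outward and 3.82% inward. For any of the 12 motifs the moved windows gave 40.2% and 36.02%, so that a motif anywhere in 100 bp was common away from peaks too, and a placed hexamer was not.

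**Figure D1:**
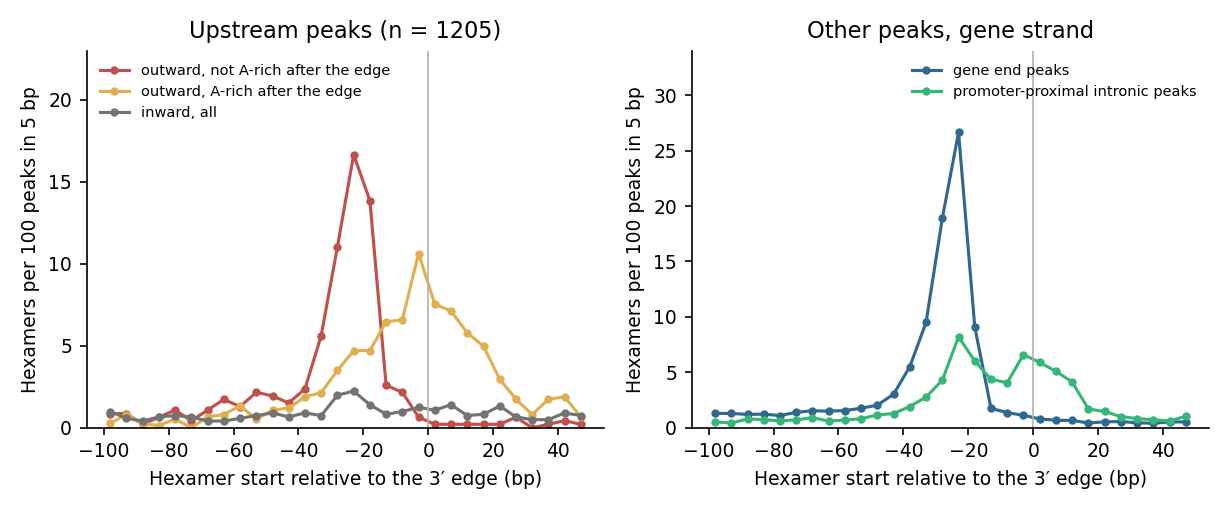
Position of AATAAA or ATTAAA around the 3′ edge. The x axis is the start of the hexamer in bp relative to the edge (negative is before it) and the y axis the hexamers per 100 peaks in bins of 5 bp; the left panel holds 1205 upstream peaks, split on the outward strand by A-rich sequence after the edge, and the right panel gene end peaks and promoter-proximal intronic peaks on the gene's strand. Outward edges without A-rich sequence peak 21 to 25 bp before the edge, as gene end peaks do, whereas A-rich ones peak at the edge itself.

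Along the outward strand, the hexamers fell into 2 places. At the 462 peaks with no A-rich sequence after the outward edge, the most frequent position was 21 to 25 bp before the edge, with 16.7 hexamers per 100 peaks, and within 5 bp before the edge there were 0.649. At the 743 peaks with A-rich sequence there, the order was the opposite, with 10.6 hexamers per 100 peaks in the last 5 bp before the edge and 4.71 at 21 to 25 bp. Gene end peaks, which mark the annotated ends of coding genes, also had their maximum at 21 to 25 bp, at 26.6 per 100 peaks, and 1.13 in the last 5 bp. Promoter-proximal intronic peaks showed both places, with 8.21 and 6.603. On the inward strand of the upstream peaks no bin exceeded 2.24. A hexamer that starts in the last 5 bp runs past the edge into the window that defines A-rich sequence, so the split by A-rich sequence is not independent of hexamers at that place.

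A-rich sequence was more one-sided than the motifs. The definition was a run of 6 A, or 7 A among 10 bases, in the 50 bp that follow the edge. It followed the outward edge at 743 peaks (61.7%, 58.9 to 64.4%) and the inward edge at 247 (20.5%, 18.3 to 22.9%), a difference of 41.2 points (exact McNemar test, adjusted p = 2.68e-68). Windows moved by 500 bp gave 22.4% outward and 20.9% inward. The stricter stretch of 25 A was outward at 120 peaks (9.96%) and inward at 32 (2.66%), with none on both strands. The outward strand thus led both in the hexamer, a signal for cleavage, and in A-rich sequence, where the kit can prime inside an RNA. The part of such priming in the peaks was not tested.

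When a motif was required without A-rich sequence on the same strand, 286 peaks (23.7%) met this outward and 252 (20.9%) inward, a difference of 2.82 points that did not pass the threshold (p = 0.0666, exact McNemar test). With the motif window moved to end at the summit, the difference was -10.9 points (exact McNemar test, p = 2.21e-13), with the higher share inward. A placed hexamer without A-rich sequence was found outward at 192 peaks (15.9%, 14.0 to 18.1%) and inward at 58 (4.81%, 3.74 to 6.17%), with 7 on both strands. This difference, 11.1 points (exact McNemar test, adjusted p = 6.85e-19), used the positional definition, which was chosen with the data in view. With the 25 A stretch in place of the looser A-rich rule, the motif difference was 16.8 points (exact McNemar test, p = 8.17e-22).

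**Figure D2:**
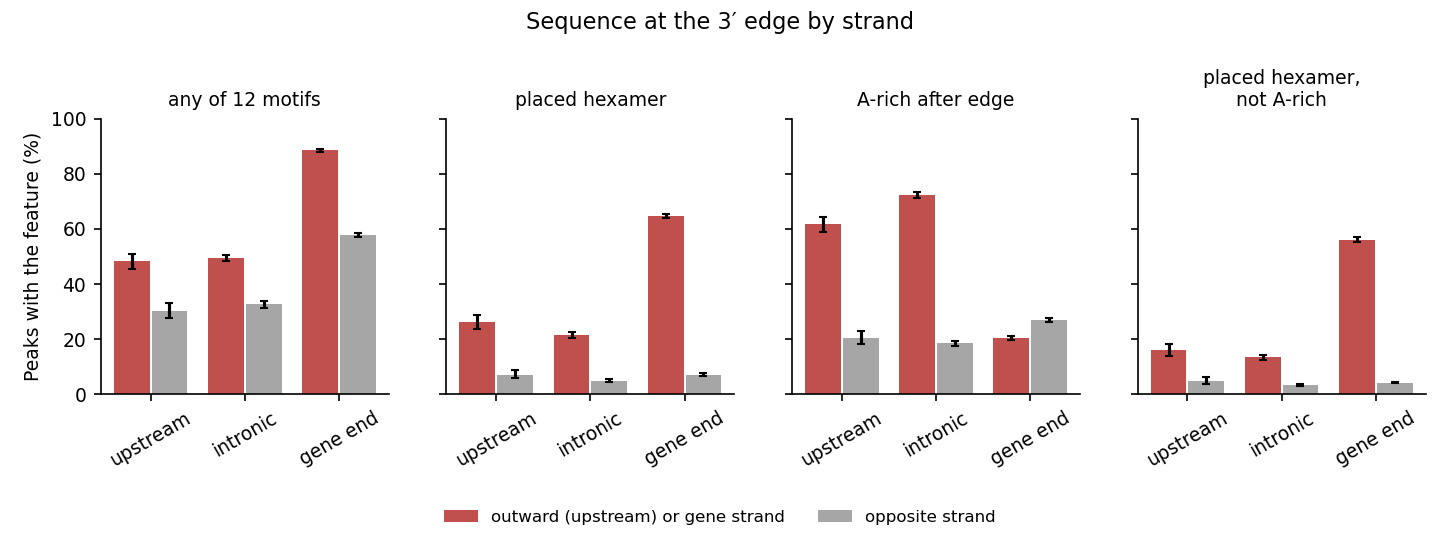
Sequence features at the 3′ edge by strand. Bars are the percentage of peaks with the feature named above each panel, on the outward strand of upstream peaks or the gene's strand of intronic and gene end peaks (red) and on the opposite strand (grey), with 95% Wilson intervals. Upstream peaks stand at 26.1% against 7.14% for a placed hexamer and at 61.7% against 20.5% for A-rich sequence. Intronic peaks are one-sided too, at 21.5% against 4.79% and at 72.2% against 18.5%, whereas gene end peaks stand at 64.7% against 7.09% and at 20.5% against 26.9%.

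Sorted by these features, the largest class was A-rich outward only, with 671 of 1205 peaks (55.7%). Peaks with a placed hexamer outward and A-rich sequence on neither strand, and no such hexamer inward, numbered 141 (11.7%, 10.0 to 13.6%), and their mirror image, with the placed hexamer inward, 31 (2.57%, 1.82 to 3.63%). A further 175 were A-rich inward only, 72 A-rich on both strands, 7 had a placed hexamer on both strands, and 108 (8.96%) had none of these. The median distance from the start was 1215 bp for the placed hexamer outward, 1948 bp for the placed hexamer inward, 1478 bp for A-rich outward only and 1458 bp for A-rich inward only.

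Sequence was also set against peak strength, as a description with no test. The −log10 q is the authors' significance of a peak against its local background. A placed hexamer without A-rich sequence was outward at 49 of 414 peaks with −log10 q below 5 (11.8%), 96 of 561 from 5 to 10 (17.1%) and 47 of 230 at 10 or above (20.4%). The inward shares were 5.80%, 3.21% and 6.96%. A-rich sequence on the outward strand stood at 64.7%, 62.9% and 53.0% over the same classes.

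By size, upstream peaks were modest. The pileup is the number of reads kept by the peak caller, extended to 100 bp, that cover the summit. It was recovered from the deposited fold enrichment and p-value. The highest pileup over all peaks was 200, the most that such reads can reach over both strands if duplicates were removed. In that case the pileup counts distinct read starts and can understate the reads at a sharp peak. At upstream peaks its median was 8 reads (quartiles 6 and 11, range 3 to 62). The median fold enrichment over the local background was 5.88 and the median width 105 bp. Over all peaks the median pileup was 9, at promoter-proximal intronic peaks 10, at gene end peaks of coding genes 18 and at intergenic peaks more than 50 kb from any gene 6. A −log10 q of at least 10 was reached by 237 upstream peaks (18.99%, 16.9 to 21.3%) and by 1456 of 6240 promoter-proximal intronic peaks (23.3%, 22.3 to 24.4%), a difference of -4.34 points (Fisher's exact test, two-sided, p = 0.000739). Against the 852 far intergenic peaks (17.3%) the difference was 1.74 points (Fisher's exact test, p = 0.329).

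Promoter-proximal intronic peaks lie within 5 kb after a coding start, inside the gene, and are the counterpart of the upstream peaks on the other side of the promoter. The share with any of the 12 motifs was 48.2% outward at upstream peaks and 49.4% on the gene's strand at intronic peaks, a difference of -1.22 points (Fisher's exact test, two-sided, p = 0.4501, the same after adjustment over 10 comparisons). Upstream peaks more often had a placed hexamer (26.1% against 21.5%, 4.63 points, adjusted p = 0.000828, Fisher's exact test) and less often A-rich sequence (61.7% against 72.2%, -10.6 points, adjusted p = 2.35e-12). Without A-rich sequence, a motif was present at 23.7% against 19.9% (Fisher's exact test, adjusted p = 0.00381) and a placed hexamer at 15.9% against 13.3% (adjusted p = 0.0247). The strand difference is not particular to upstream peaks. On the strand opposite to the gene, intronic peaks had any motif at 32.6%, a placed hexamer at 4.79% and A-rich sequence at 18.5%. Their A-rich difference between strands was 53.7 points.

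The far intergenic peaks have no gene to give them a strand, so a feature was counted on either strand in both sets. Any motif was found at 58.7% of upstream and 56.6% of far intergenic peaks (2.099 points, p = 0.365, Fisher's exact test). A placed hexamer was found at 32.0% against 24.2% (7.85 points, Fisher's exact test, adjusted p = 0.000284), and a placed hexamer without A-rich sequence at 20.2% against 12.8% (7.37 points, adjusted p = 3.50e-05). A-rich sequence after either edge was found at 76.2% against 89.4% (-13.3 points, Fisher's exact test, adjusted p = 5.14e-14). The sets also differed in local background, with a median of 0.440 reads at upstream and 0.190 at far intergenic peaks.

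Upstream peaks crowded toward the promoter. Their median distance from the gene start was 1391.5 bp (quartiles 719.5 and 2450 bp, range 54 to 4963 bp), and 829 (66.4%) lay within 2 kb. To allow for sequence that the rule closes off, peaks were counted per Mb of searchable sequence, the positions within 5 kb upstream of a start where a peak could have been counted (29.2 Mb in all). The density was 64.8 peaks per Mb within 500 bp of the start (95% exact interval 56.0 to 74.6), 83.6 from 500 to 1000 bp (73.8 to 94.3), 53.2 from 1500 to 2000 bp, 31.8 from 2500 to 3000 bp and 14.8 from 4500 to 5000 bp (10.6 to 20.2). Within 1 kb there were 458 peaks in 6.15 Mb and from 4 to 5 kb 91 peaks in 5.45 Mb, a density 4.46 times higher near the start (exact binomial test, two-sided, p = 9.72e-51). Counting 1 peak per gene, the ratio was 4.66. Sequence more than 50 kb from any gene held 2.46 peaks per Mb, below every bin. The limit of 5 kb is not a natural edge, since 40 peaks lay from 4.5 to 5 kb and 35 peaks that met all other conditions from 5 to 5.5 kb.

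**Figure D3:**
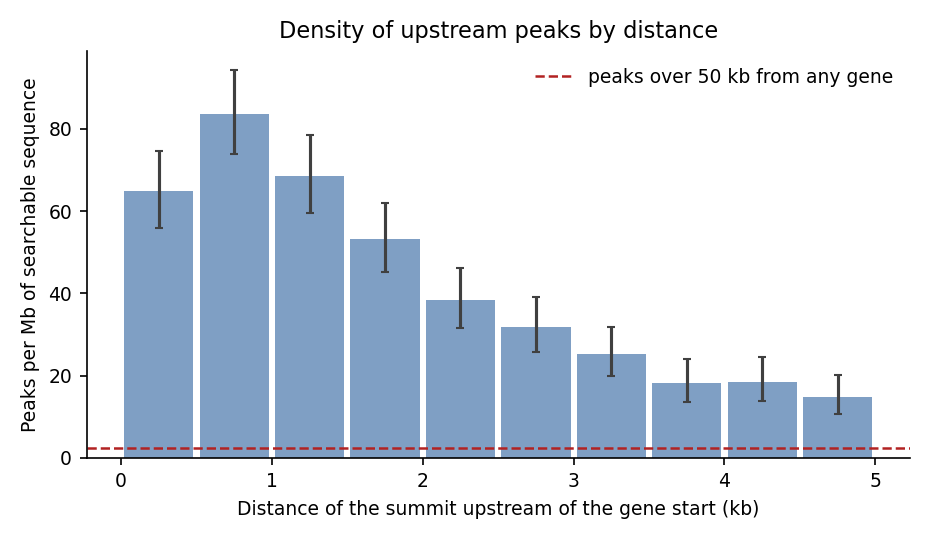
Density of upstream peaks by distance from the gene start. The x axis is the distance of the summit upstream of the start in kb, in bins of 500 bp, the bars are peaks per Mb of searchable sequence with 95% exact intervals, and the dashed line marks 2.46 peaks per Mb in sequence more than 50 kb from any gene. The bars reach 83.6 at 500 to 1000 bp and 14.8 in the last bin.

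The strands were farthest apart in the hexamer near the start. A placed hexamer was outward at 30.9% and inward at 4.97% of peaks within 500 bp, at 26.1% and 4.35% from 500 to 1000 bp, and at 26.3% and 5.13% from 1500 to 2000 bp. In the last bin, 4500 to 5000 bp with 39 peaks, both shares were 17.9%. The outward A-rich share in these bins was 50.3%, 63.6%, 65.4% and 43.6%, and the inward A-rich share 24.3%, 19.4%, 14.7% and 33.3%. For A-rich sequence the gap was widest farther out, from 2500 to 3000 bp, at 75.6% outward and 15.6% inward. The change with distance was not tested.

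The start-proximal sequence itself differs between the sides of the promoter. Over the 2 kb outward of the 1056 genes with an upstream peak (all with at least 1 kb of searchable sequence), AATAAA or ATTAAA occurred 1.43 times per kb on the outward strand, and over the first 2 kb inside these genes 0.676 times per kb on the gene's strand. Words that match U1 binding were searched on the strand read only. They were GGTAAG, then GGTGAG, and as the last word GTGAGT, which may overlap the one before it and was then counted as well. They occurred 0.606 times per kb outward and 1.08 times per kb inside. The GC content was 48.9% outward and 54.8% inside. The 5778 searchable genes without an upstream peak had 1.36 hexamers and 0.641 U1 words per kb outward, and 0.925 and 1.13 inside. At least 1 hexamer in the 2 kb outward was held by 82.6% of them, against 84.6% of the genes with a peak. The 3011 of them with a gene end peak had 1.26 hexamers and 0.620 U1 words per kb outward, and 0.756 and 1.13 inside. Of these 3011, 81.2% held a hexamer outward. These values are descriptions with no test.

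The peaks were not always at the nearest hexamer. At the 192 peaks with a placed hexamer and no A-rich sequence outward, that hexamer was the nearest AATAAA or ATTAAA to the gene start at 83 (43.2%), the second at 42 (21.9%), the third at 21 (10.9%) and a later one at 46 (24.0%). The median distance from the start to the edge was 1333 bp, and between start and hexamer there were 0.602 U1 words per kb.

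Genes with an upstream peak more often had other poly(A) peaks. Of the 6834 protein-coding genes with at least 1 kb of searchable upstream sequence, 1056 (15.5%) had at least 1 upstream peak, counting both genes of a peak between a pair of starts. A gene end peak, from 200 bp before to 600 bp after a transcript end, was present at 930 of the 1056 (88.1%, 86.0 to 89.9%) and at 3011 of 5778 genes without an upstream peak (52.1%, 50.8 to 53.4%; odds ratio 6.78, Fisher's exact test, two-sided, adjusted over 3 comparisons p = 1.05e-118). Gene end peaks carry no strand either, and 20.5% of them had A-rich sequence after the edge on the gene's strand.

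The share rose with the gene end pileup. An upstream peak was found at 126 of 2893 genes with no gene end peak (4.36%, 3.67 to 5.16%), at 374 of 1918 with a highest gene end pileup of up to 20 reads (19.5%, 17.8 to 21.3%), at 511 of 1867 with 21 to 50 reads (27.4%, 25.4 to 29.4%) and at 45 of 155 with 51 to 100 reads (29.0%, 22.5 to 36.6%). The intervals of the last pair overlap. The median searchable length was 4950 bp in each of these classes. Within a gene the upstream peak usually had the lower pileup, with a median of 35.7% of the gene end pileup over 1103 peaks. The upstream pileup was the higher at 66 (5.98%). If duplicates were removed, these pileups and the classes above do not measure the number of reads.

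**Figure D4:**
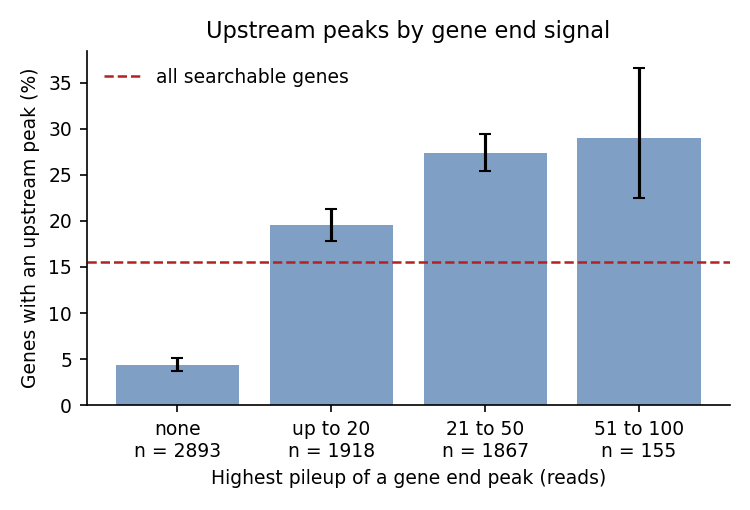
Upstream peaks by gene end signal. Bars are the percentage of searchable protein-coding genes with at least 1 upstream peak, by the highest pileup of a gene end peak in reads, with 95% Wilson intervals and the number of genes under each bar; the 1 gene over 100 reads is left out. The share goes from 4.36% with no gene end peak to 29.0% at 51 to 100 reads, with 15.5% over all these genes (dashed line).

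CpG-rich promoters, the common kind at broadly expressed genes, were more frequent among these genes. A promoter was called CpG-rich with a GC content of at least 50% and an observed to expected CpG ratio of at least 0.6 over 500 bp on each side of the start. This held for 830 of 1056 genes with an upstream peak (78.6%, 76.0 to 81.0%) and 2885 of 5778 without (49.9%, 48.6 to 51.2%; odds ratio 3.68, adjusted p = 3.58e-70, Fisher's exact test). Among genes with a gene end peak the shares were 83.7% and 69.4% (odds ratio 2.26, Fisher's exact test, p = 8.37e-19). In the class with a gene end pileup of 21 to 50 reads they were 86.9% and 74.6%.

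A promoter-proximal intronic peak was present at 425 of 1056 genes with an upstream peak (40.2%, 37.3 to 43.2%) and 1349 of 5778 without (23.3%, 22.3 to 24.5%; odds ratio 2.21, adjusted p = 1.27e-28, Fisher's exact test). Among genes with a gene end peak this difference did not pass the threshold, at 402 of 930 (43.2%) against 1197 of 3011 (39.8%; odds ratio 1.15, Fisher's exact test, p = 0.0613). At a gene end pileup of 21 to 50 reads the shares were 45.2% and 44.8%.

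Most genes had a single upstream peak. There were 862 genes with 1, 161 with 2, 20 with 3 and 1 with 4, so 182 genes held 386 of the 1248 peaks. The spacing of neighbouring peaks of a gene was computed over 200 pairs, fewer than these counts give. Its median was 804 bp (quartiles 498.25 and 1527.25 bp). SCAF4, which binds the C-terminal domain of RNA polymerase II and is known to keep transcripts from ending at early poly(A) sites, had the most. Its 4 peaks lay 737, 1088, 1658 and 3104 bp upstream, with pileups of 12, 12, 8 and 12 reads and −log10 q of 6.30, 6.69, 3.23 and 6.90. The peaks at 737 and 1088 bp had a placed hexamer outward and no A-rich sequence on either strand, the one at 3104 bp a stretch of 25 A outward. All 4 lie in the span of a RefSeq long noncoding RNA, LOC124905008, at a place where GENCODE release 44 has no gene. The outward sequences at the peaks 1088 and 737 bp upstream (chr21:31733320-31733419 and chr21:31732810-31732909, both forward strand) show the hexamer 19 and 23 bp before the edge, in capitals.

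SCAF4, 1088 bp: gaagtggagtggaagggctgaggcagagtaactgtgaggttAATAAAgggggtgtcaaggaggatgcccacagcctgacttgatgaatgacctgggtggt
SCAF4, 737 bp: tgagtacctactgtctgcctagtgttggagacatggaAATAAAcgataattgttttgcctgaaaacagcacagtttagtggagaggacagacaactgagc

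Among the 20 genes tied at 3 peaks, those with the highest −log10 q were SLC29A3, DDX1 and CCND1. SLC29A3, a nucleoside transporter, had peaks at 819, 1662 and 3531 bp with pileups of 10, 23 and 9 reads. DDX1, an RNA helicase gene next to MYCN that is often amplified with it, had peaks at 367, 1373 and 2858 bp with pileups of 13, 15 and 24 reads, of which the 2858 bp peak had a placed hexamer outward and the others were A-rich outward. CCND1, which encodes cyclin D1, had peaks at 685, 1372 and 2366 bp with pileups of 27, 22 and 31 reads over a background of 3.02, 2.83 and 2.81 reads. These pileups are high for upstream peaks, and so is the background, which puts the fold enrichment at 6.97, 6.01 and 8.40. The 2366 bp peak of CCND1 had its placed hexamer on the inward strand (chr11:69638780-69638879, forward strand, which is the strand of CCND1), shown here as an example of the mirror-image class, with the hexamer in capitals.

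CCND1, 2366 bp, inward: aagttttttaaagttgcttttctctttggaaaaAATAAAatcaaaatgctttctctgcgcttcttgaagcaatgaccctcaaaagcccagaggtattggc

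The 12 strongest upstream peaks were a mixed group. The highest, chr14:23583393-23583758, lay 4870 bp upstream of JPH4, a junctophilin that ties the plasma membrane to the endoplasmic reticulum in neurons, with a pileup of 62 reads, a fold enrichment of 26.4 and a −log10 q of 72.9. It had a motif on the inward strand only and no A-rich sequence. The next, chr20:63501363-63501523, lay 2212 bp upstream of EEF1A2, the elongation factor isoform of neurons and muscle, with 44 reads and a −log10 q of 51.9. Both neuronal genes also had gene end peaks, with highest pileups of 50 and 24 reads, so in both the upstream pileup was the higher. If duplicates were removed, these pileups do not rank the peaks by number of reads.

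KIF26B, a member of the kinesin family, followed with a peak of 39 reads 1833 bp upstream and a −log10 q of 39.5. GALNTL6, of the family of GalNAc transferases, had 42 reads 110 bp upstream and also a −log10 q of 39.5, against 19 reads at its annotated end. PRRT4 had 43 reads 871 bp upstream, MAP3K7 26 reads at 3784 bp, and PRMT6 39 reads at 1275 bp. MAP3K7 encodes the signalling kinase TAK1 and PRMT6 an arginine methyltransferase. Of the first 7, only MAP3K7 had a placed hexamer outward.

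LASP1, an actin-binding protein gene, had 23 reads 578 bp upstream, at a place where RefSeq annotates a transfer RNA gene (TRC-GCA4-1). USP24, a deubiquitinase, had 28 reads at 1712 bp, RFK, the riboflavin kinase, 26 at 1903 bp, CADPS, which primes dense-core vesicles for release, 25 at 471 bp, and RANBP17, a nuclear transport receptor, 19 at 3372 bp. The RFK peak lies in the RefSeq span of another coding gene, GCNT1. The RANBP17 peak matched a GENCODE transcript elsewhere. Their −log10 q ran from 26.0 for RANBP17 to 27.9 for LASP1. In all, 1 of the 12 had a placed hexamer outward without A-rich sequence, 4 were A-rich outward only, 2 were A-rich inward only and 5 had none of these features. Among the 12, the peaks of EEF1A2, GALNTL6, MAP3K7 and USP24 lie in spans of RefSeq long noncoding RNAs.

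**Figure D5:**
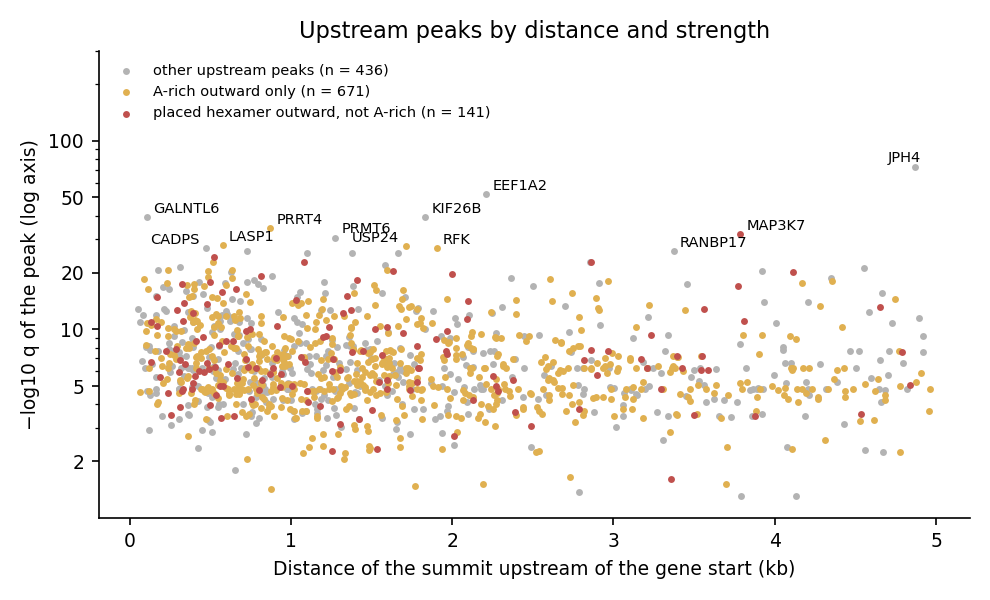
The 1248 upstream peaks by distance and strength. The x axis is the distance of the summit upstream of the gene start in kb and the y axis the −log10 q on a log axis; points are coloured by class, with the peaks between a pair of coding starts among the grey ones, and the 12 strongest carry their gene's name. The highest point is JPH4 at 72.9, and the class with a placed hexamer outward (n = 141) has its median at 1215 bp, with 73.8% of its peaks within 2 kb.

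The next peaks are the strongest with a placed hexamer and no A-rich sequence outward. They come from the same ranking, so lower values follow from the choice. After MAP3K7 came MYBL1, a transcription factor of the MYB family, with 23 reads 521 bp upstream and a −log10 q of 24.2. DDX1 followed with 24 reads and 22.9, CKS2, which binds cyclin-dependent kinases, with 23 reads 1079 bp upstream and 22.6, and B3GNT2, an enzyme of poly-N-acetyllactosamine synthesis, with 18 reads at 1634 bp and 20.4. ST8SIA2, which adds polysialic acid to the neural adhesion molecule NCAM, had 23 reads at 4111 bp and 20.2. TUBB6, a beta-tubulin, had 16 reads at 1996 bp and 19.5, and TMEM179 18 reads at 817 bp and 19.2. These 8 were chosen by their −log10 q among peaks with that sequence. MAP3K7, MYBL1, DDX1, CKS2 and B3GNT2 lie in spans of RefSeq long noncoding RNAs, and ST8SIA2, TUBB6 and TMEM179 in no RefSeq gene. MYBL1 had the lowest gene end pileup of the 8, at 8 reads, below that of its upstream peak, and B3GNT2, at 12 reads, was also below its upstream peak.

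Part of the upstream peaks thus lie within gene spans of another annotation. Because peaks carry no strand, this overlap does not show which transcript the reads came from. Of the 1248, 259 (20.8%) overlapped a RefSeq gene span, 51 (4.09%) that of the same coding gene and 151 (12.1%) only spans of long noncoding RNAs. At these 151 peaks a placed hexamer was outward at 35.1% and inward at 5.30%, and at the 954 peaks with coding starts on 1 side and in no RefSeq span at 24.8% and 7.02%. A match to a GENCODE transcript over at least 80% of the peak at 95% identity was found for 147 peaks (11.8%), and to the mitochondrial genome for 0. The 863 peaks with neither a RefSeq span nor a match are 69.2% of the total. The rule also leaves out upstream transcripts that GENCODE itself annotates, since 1629 of 20033 coding starts had a peak within 5 kb upstream in an annotated long noncoding RNA on the opposite strand.

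The 43 peaks between a pair of coding starts had no outward strand. The starts were a median of 4041 bp apart (range 294 to 9443 bp). The median pileup was 8 reads and the highest 21. A-rich sequence followed 1 edge or both at 32 (74.4%), and a placed hexamer lay before 1 or both at 11 (25.6%).

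The gene lists of the study's field were mostly closed to this measurement, since a neighbouring gene or gene end leaves too little upstream sequence. None of CDK12, CDK13 and CCNK, the kinases and their cyclin, had an upstream peak, and of these only CDK12 was searchable, with a gene end pileup of 29 reads. Of 20 genes of nuclear RNA decay and termination, 2 were searchable. MTREX, the helicase that feeds upstream transcripts to the exosome, shares a peak of 14 reads with DHX29, whose start is the nearer at 102 bp, but has too little upstream sequence to count as searchable. Of 3 U1 snRNP genes 1 was searchable and had none.

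Of 18 DNA repair genes, 3 were searchable and FANCI, which works with FANCD2 at crosslinks, had a peak of 6 reads 3205 bp upstream, A-rich outward. Of 18 neuroblastoma transcription factors 2 were searchable (LMO1 and TFAP2B), and neither had one. POGZ, a chromatin zinc finger protein whose upstream transcript is a frequent example, had 18 reads 116 bp upstream with a −log10 q of 16.4, a motif outward, and A-rich sequence outward. TMEM97, the other searchable example, had none. With 1 to 3 searchable genes in each of these lists, the counts cannot be set against the 15.5% over all genes.

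Cell type markers were checked at gene ends, in the pooled reads of Kelly and Kelly E9R. All 11 neuroblastoma markers had a gene end peak, with highest pileups from 29 reads (CHGB) to 96 (MYCN). Of 10 markers of blood, liver, epithelium, endothelium and fibroblasts, EPCAM, COL1A1 and COL3A1 had one, at 6, 16 and 7 reads, and the other 7 were without. Among the 5 searchable neuroblastoma markers, the chromogranins CHGA and CHGB, proteins of dense-core vesicles, had an upstream peak, and among the 5 searchable markers of other cells 0 did, against 15.5% of all searchable genes. With 5 searchable genes in each list, no difference is read from these counts. The CHGB peak, 11 reads 1613 bp upstream, lay at a stretch of 25 A outward. The CHGA peak, 9 reads 3057 bp upstream, had its placed hexamer on the inward strand.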

How the data were processed

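Poly(A) 3′-seq libraries of Kelly and Kelly E9R cells were made with a 3′ kit that starts reads at the poly(A) junction. The authors trimmed reads with BBDuk, mapped them with STAR 2.5.1b to GRCh38 with ERCC spike-ins, merged all libraries and called peaks with MACS2 2.1.1 (reads extended to 100 bp). How MACS2 treated duplicates, and its q cutoff, are not given in the sources used here. The highest pileup, 200, is the ceiling that removal of duplicates would set with this extension. The deposited list holds a fold enrichment (a ratio of pileup to local background), −log10 p, −log10 q, a score and the summit offset per peak, and 0 columns of values per sample. The score as deposited was not used.

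Pileup and background were recovered from the deposited fold and −log10 p with MACS2's formulas; a whole pileup within 0.001 of the deposited −log10 p was found for 100% of peaks, the highest being 200. Genes, transcripts and starts are from GENCODE release 44 on GRCh38, and RefSeq spans from its table for GRCh38.p14. Searchable sequence lies at least 50 bp from genes. Statistics used scipy 1.17.1, matches blastn 2.17.0. Scripts were tested on simulated data. Groups follow the labels. Tests were exact McNemar, Fisher's exact and exact binomial. The 4 groups were not compared.

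The members and lists were chosen with earlier results of these data known. Genes named are those of the 12 strongest peaks, of the 8 strongest with a placed hexamer and no A-rich sequence outward, the 4 with the most peaks (ties by −log10 q), and members of the fixed lists with a peak. Sequences are shown for 4 of the 8, with further ones chosen after their values were seen (CBS, SCAF4, CCND1). Some items these rules name are not reported here.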

Additional observations from a re-analysis of the deposited data

How the results depend on the processing

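Some results kept their direction and their side of the threshold under every alternative run for them. These were the larger strand difference in A-rich sequence, the density near the start, the gene end peak and the CpG-rich promoter. Of 74 alternatives in all, 53 were labelled as leaving the result the same. For counts that label is loose. It was given to 863 peaks in place of 1248, when peaks with a RefSeq span or a transcript match were left out. The outward minus inward difference in the motif turned to -2.49 points only when read before the summit. The motif without A-rich sequence (2.82 points) turned to -10.9 points with that window, and so passed the threshold in the opposite direction (exact McNemar test, p = 2.21e-13). It passed the threshold outward at 3.54 points among peaks kept by the study's removal of A stretches, at 4.30 with −log10 q of at least 5, at 9.63 with AATAAA and ATTAAA alone, at 9.21 in a 40 bp window, at 11.1 with the placed hexamer and at 16.8 with the 25 A stretch. The motif share against intronic peaks (-1.22 points) turned to 0.95 with −log10 q of at least 5, 3.92 with AATAAA and ATTAAA alone, 3.88 without A-rich sequence and 2.58 with the placed hexamer without it. Against far intergenic peaks (2.099 points) it passed the threshold at 7.55, 7.83 and 7.37 under the last 3 of these. The log2 odds ratio for an intronic peak was 1.14 over all searchable genes and 0.21 among genes with a gene end peak. The number of peaks, 1248, became 819 and 237 with −log10 q of at least 5 and 10, 829 within 2 kb, 2298 with no limit on gene ends and 666 with none within 25 kb. With the study's removal of A stretches it became 1111. Where not stated otherwise, the cause was not tested. The placed hexamer and the RefSeq and transcript matches were alternatives chosen after seeing the data. No paired analysis was possible because the list holds no value per library, and for the same reason no replicate could be left out. Depth limits the peaks with few reads: the lowest pileup was 3.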
